A study of Mus musculus with 9 samples.

Results

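Tfap2a, Tfap2b and Tfap2c encode AP-2 transcription factors, and their transcripts were followed through single-cell RNA sequencing of mouse forelimb buds. The members were taken by their symbols, and all 3 were found among the 32289 features counted in each of the 9 libraries. Each library was made from a pair of forelimb buds of 1 selected embryo at E10.75 (37 to 39 somites). The 3 genotypes, with 3 libraries each, were wild type (Wt), E1C8Δ/Δ (EC1CRM8Δ/Δ) and E1C5Δ/Δ (EC1CRM5Δ/Δ). Both mutants are homozygous for a deletion of limb bud enhancers of Grem1, which encodes a secreted BMP antagonist, in every cell of the embryo, and both form tetradactyl limbs. By expression of Xist and Y-linked genes all 3 Wt embryos were male, whereas each mutant genotype had 1 male and 2 female embryos. The comparison asks where in the limb bud each Tfap2 gene was transcribed and whether its level differed in the tetradactyl buds.

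AP-2 proteins bind GC-rich DNA as dimers through a helix-span-helix domain, and they recruit coactivators of the CITED and CBP/p300 families. TFAP2A is required for closure of the face, neural tube and body wall, TFAP2B for the kidney, the ductus arteriosus and neural crest derivatives, and TFAP2C for the trophoblast and germ cells. In early embryos the family is best known from surface ectoderm and neural crest. The limb bud consists of a mesenchymal core under an ectodermal jacket, whose distal rim, the apical ectodermal ridge, secretes FGFs. Hoxa13 and Hoxd13 mark the distal mesenchyme from which the autopod with its digits forms.

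In the mouse genome (GRCm38/mm10, GENCODE M21 annotation) Tfap2b (ENSMUSG00000025927) lies on the plus strand of chromosome 1 from 19208914 to 19238576. It starts 42.568 kb downstream of the end of its paralogue Tfap2d, and no other annotated gene overlaps it. Tfap2c (ENSMUSG00000028640) lies on the plus strand of chromosome 2 from 172549593 to 172558622, also without an overlapping gene. Tfap2a (ENSMUSG00000021359) lies on the minus strand of chromosome 13 from 40715302 to 40738376, where 3 antisense genes overlap it. These antisense genes held 268, 768 and 6 UMIs (unique molecular identifiers, each standing for 1 captured transcript) in mesenchyme, compared with 15828 for Tfap2a itself. The study ran Cell Ranger with its default settings, which count reads on the sense strand of a gene.

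The 250 bases before a RefSeq start of Tfap2b and of Tfap2a are shown because these members had the highest levels in ectoderm, and Tfap2b the steepest distal difference in mesenchyme. The sequences are from RefSeq (GRCm38.p6), written 5′ to 3′ on the strand of the gene, and the capitals mark the homeodomain core TAAT or its reverse complement ATTA.
Tfap2b, chr1:19211804-19212053, plus strand: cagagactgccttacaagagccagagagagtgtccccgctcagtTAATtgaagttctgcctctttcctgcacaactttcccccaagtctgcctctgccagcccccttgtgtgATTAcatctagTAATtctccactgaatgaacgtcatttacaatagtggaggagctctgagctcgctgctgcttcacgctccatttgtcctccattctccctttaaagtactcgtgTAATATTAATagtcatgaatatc
Tfap2a, chr13:40734921-40735170, minus strand: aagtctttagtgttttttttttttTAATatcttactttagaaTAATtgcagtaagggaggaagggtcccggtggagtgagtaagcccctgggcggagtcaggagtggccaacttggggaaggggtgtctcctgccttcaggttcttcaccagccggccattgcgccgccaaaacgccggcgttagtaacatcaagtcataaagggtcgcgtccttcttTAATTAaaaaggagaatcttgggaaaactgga
The Tfap2b window held 6 matches to TAAT on either strand, adjoining and overlapping copies counted separately, and 3.26% of 32851 mouse promoter windows of this length held at least as many. The printed Tfap2a window, the more upstream of the 2 that RefSeq gives, held 4 matches, which 9.62% of windows reached. The other Tfap2a window, chr13:40733796-40734045, held 3 matches, which 17.3% reached, and 54.9% of all windows had at least 1 match. All these windows lie inside the genes as GENCODE draws them, downstream of the outermost annotated start. The AP-2 site GCCNNNGGC, searched on both strands, was not in any of these windows and was present in 13.7% of all windows. These matches are letters in a sequence and not evidence of binding.

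Of 52432 cells that passed the filters on genes, UMIs and mitochondrial share, 44654 were kept after removal of doublets. Per library 592 to 8699 cells remained. Before the removal of doublets the median depth was 18179 to 49873 UMIs per cell. Cells were assigned to a lineage by fixed marker genes that include no Tfap2 gene, which gave 34065 mesenchyme cells and 665 ectoderm cells. In ectoderm-gated cells the 12 ectoderm markers summed to 2382 to 2835 UMIs per 1000000 UMIs (CPM), compared with 9.46 to 19.5 CPM in mesenchyme-gated cells. The 5 mesenchyme markers summed to 63.4 to 448 CPM in ectoderm and 1473 to 1872 CPM in mesenchyme. Wt replicate 3 held only 8 ectoderm cells, below the minimum of 10, so ectoderm tests used 8 libraries with 2 of Wt. Grem1 was lower in mesenchyme of both mutants, with 29.0 to 44.7 CPM in Wt, 11.1 to 13.9 CPM in E1C8Δ/Δ and 15.9 to 24.5 CPM in E1C5Δ/Δ (both mutants minus Wt, log2 −1.15, SE 0.14, edgeR adjusted p = 0.0055). Cell barcodes shared by a pair of libraries numbered 2 to 172, fewer than 1% of the smaller library. Markers of the other sex exceeded 1 CPM in 3 libraries, with Xist at 21.7 CPM in male Wt replicate 1 and 8.07 CPM in male E1C8Δ/Δ replicate 3, and Y-linked genes at 3.33 CPM in female E1C8Δ/Δ replicate 1. Results were also computed without each library.

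Tfap2b had the highest and Tfap2c the lowest level of the 3 members in ectoderm, whereas in mesenchyme the members ranked differently by place. All levels are UMIs of the gene per 1000000 UMIs of the gated cells, counted at transcript 3′ ends and hence not scaled by gene length. In ectoderm Tfap2b reached 205 and 187 CPM in the 2 Wt libraries, 126, 175 and 145 CPM in E1C8Δ/Δ and 152, 163 and 109 CPM in E1C5Δ/Δ. Tfap2a followed with 121 and 82.8 CPM in Wt, 93.7, 90.4 and 68.1 CPM in E1C8Δ/Δ and 77.5, 101 and 105 CPM in E1C5Δ/Δ. In each of the 8 libraries the Tfap2b level exceeded that of Tfap2a. Tfap2c had 29.0 and 23.0 CPM in Wt ectoderm, 28.5, 17.5 and 23.9 CPM in E1C8Δ/Δ and 17.4, 10.6 and 15.0 CPM in E1C5Δ/Δ, below the other two members in each library. The background in erythroid cells, which should lack these transcription factors, was 0 to 1.49 CPM for all members in libraries with at least 10 such cells. The remaining family genes were hardly detected, with 1 UMI of Tfap2d in 34065 mesenchyme cells and none in 665 ectoderm cells, which allows at most 3 UMIs. Tfap2e had 45 and 3 UMIs, respectively.

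**Figure D1:**
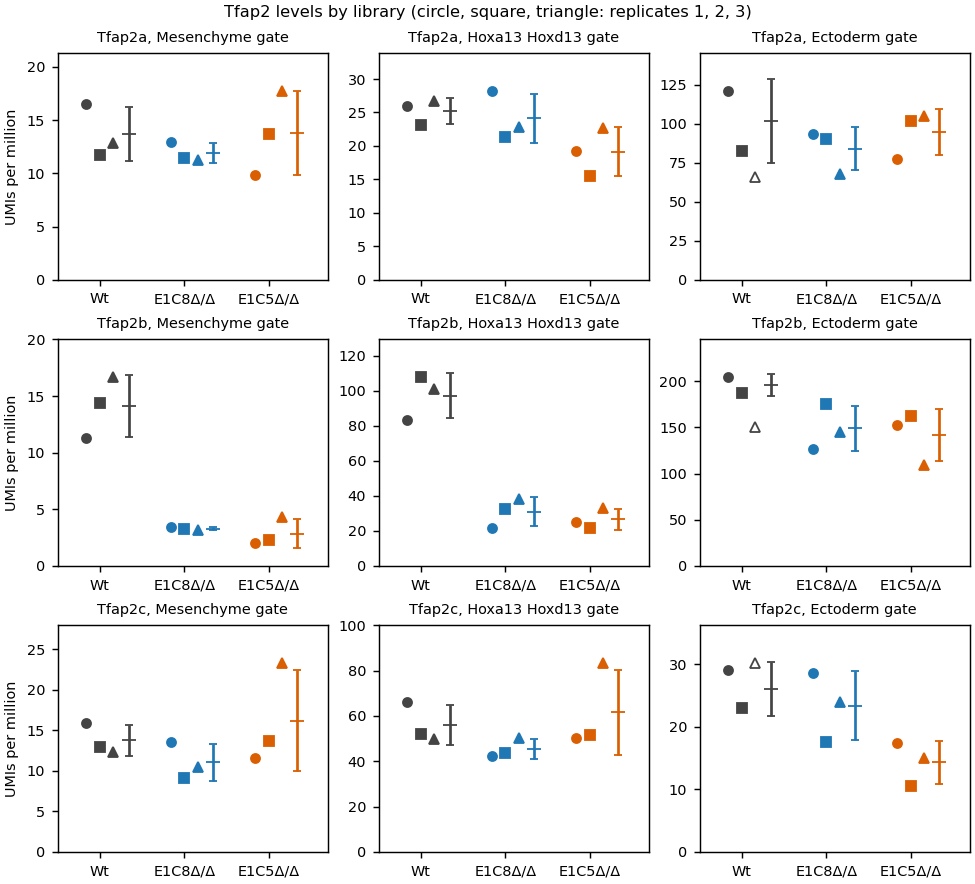
Level of each Tfap2 gene (UMIs per 1000000 UMIs, linear axes from 0) by genotype in mesenchyme, the distal Hoxa13 and Hoxd13 mesenchyme and ectoderm. Circles, squares and triangles are replicates 1, 2 and 3, open where a library had fewer than 10 cells, and bars are the mean ± SD of the other libraries. In mesenchyme and distal mesenchyme the Wt points of Tfap2b lie above all mutant points. The Tfap2a and Tfap2c points of the genotypes overlap in mesenchyme. In distal mesenchyme the E1C5Δ/Δ points lie below Wt for Tfap2a, a difference that was not called.

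With library as a block, all 3 members were called higher in ectoderm than in mesenchyme, a comparison in which 57.7% of all genes tested differed in either direction. Tfap2b was 13.0 to 76.0 times higher in ectoderm in 8 of 8 libraries (log2 5.05, SE 0.24, edgeR adjusted p = 8.6e-13). This log2 value pools the genotypes. The ratio was 18.1 and 13.0 in the 2 Wt libraries and 25.5 to 76.0 in the mutant libraries, without overlap. Tfap2a showed a narrower range of 5.90 to 7.90 times in 8 of 8 libraries (log2 2.85, SE 0.064, adjusted p = 1.5e-17). Tfap2c differed least, with 0.641 to 2.29 times and a higher level in ectoderm in 6 of 8 libraries but a lower one in E1C5Δ/Δ replicates 2 and 3 (log2 0.69, SE 0.17, adjusted p = 0.0017). The wide range of the Tfap2b ratio was set by mesenchyme, where its level ran from 2.00 to 14.4 CPM over these 8 libraries, compared with 109 to 205 CPM in ectoderm. Ectoderm markers in mesenchyme-gated cells were at 0.397% to 0.689% of their ectoderm level. At that percentage the ectoderm level of Tfap2b would give 0.435 to 1.21 CPM in mesenchyme. The mesenchyme gate left out cells with 4 or more of these markers, so the percentage was held low by the gating. It is therefore no upper limit for ectoderm RNA in mesenchyme-gated cells.

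Within the mesenchyme, Tfap2b and Tfap2c were concentrated in the distal cells that held UMIs of both Hoxa13 and Hoxd13. Of all genes tested, 58.9% differed between these 1928 distal cells and mesenchyme with neither gene, called other mesenchyme from here on. The 8235 mesenchyme cells with only 1 of the 2 genes were left out of this comparison. Tfap2b in Wt distal cells reached 83.0, 108 and 101 CPM, compared with 0.911, 1.83 and 0.990 CPM in Wt mesenchyme with neither Hox gene. Over all 9 libraries the distal level was 28.4 to 102 times higher (log2 5.74, SE 0.13, adjusted p = 4.5e-16). Tfap2c in Wt reached 66.1, 51.8 and 49.9 CPM in distal cells, and 6.57, 5.64 and 2.66 CPM in cells with neither gene. Its distal level was 5.92 to 18.8 times higher in 9 of 9 libraries (log2 3.04, SE 0.095, adjusted p = 2.3e-14). Tfap2a was spread more evenly, with 26.0, 23.1 and 26.8 CPM in Wt distal cells and 17.2, 11.3 and 13.1 CPM in cells with neither gene. It was nevertheless higher distally in 9 of 9 libraries by 1.03 to 2.22 times (log2 0.76, SE 0.096, adjusted p = 2.0e-06). Thus Tfap2b and Tfap2c had their mesenchymal maximum at the same pole of the bud, while Tfap2a transcripts were found throughout the mesenchyme.

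Other places in the mesenchyme, defined by UMIs of further markers and sharing cells with each other, ordered the Wt levels further. Tfap2b averaged 97.1 ± 12.8 CPM (SD, n = 3) in distal cells and 57.7 ± 6.2 CPM in cells with Shh, the posterior organizer signal. Its mean was 18.4 ± 3.9 CPM in peripheral cells with Asb4 and Lhx2, and 14.1 ± 1.9 CPM in cells with Hoxa11, a gene of the zeugopod level. It was 5.57 ± 2.09 CPM in core cells with Sox9 and Col2a1, 4.71 ± 2.93 CPM in anterior proximal cells with Pax1 and 3.25 ± 2.55 CPM in proximal cells with Gsc and Creb5. The Wt libraries of peripheral and Hoxa11 cells overlapped with each other, as did those of core, Pax1 and proximal cells, whereas distal cells, Shh cells and these groups were separated from one another. Tfap2c followed the same top ranks with 56.0 ± 8.9 CPM in distal and 45.7 ± 16.7 CPM in Shh cells, which overlapped, and 3.91 to 17.3 CPM as means of the other places. For Tfap2a all places lay between 3.98 ± 0.19 CPM in proximal and 25.3 ± 2.0 CPM in distal cells. Low Tfap2a in proximal and in Pax1 cells (6.59 ± 1.27 CPM) was its clearest regional feature.

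**Figure D2:**
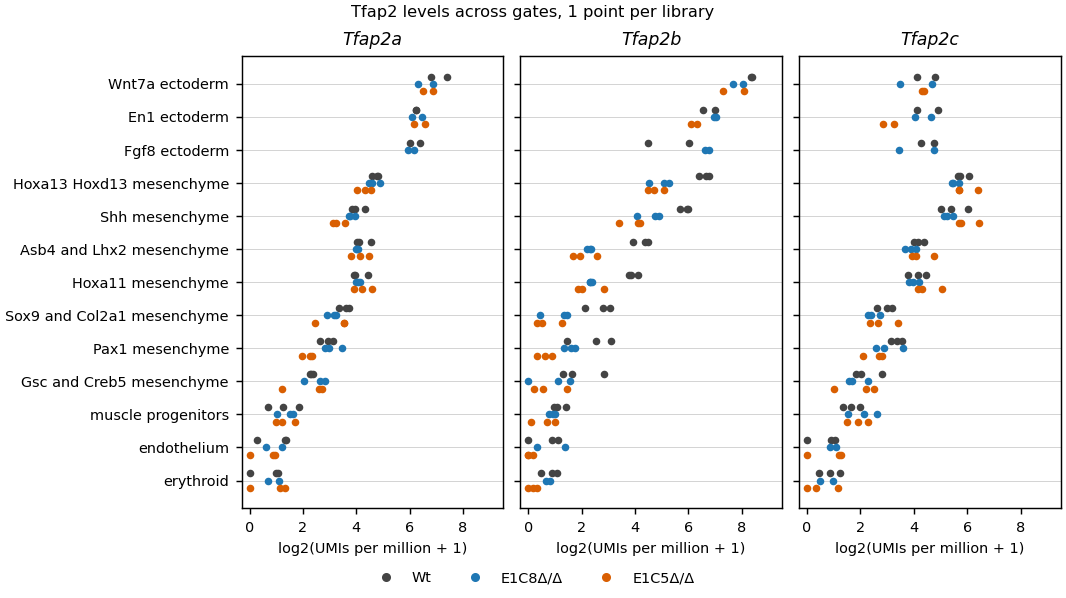
Level of each Tfap2 gene, as log2(CPM + 1) on the x axis, in blood, vessel and muscle cells, 7 places of the mesenchyme and 3 places of the ectoderm, with 1 point per library of at least 10 cells and colours for genotypes. Tfap2b and Tfap2c rise towards the Shh and the distal cells within the mesenchyme, whereas Tfap2a is lowest there in proximal and Pax1 cells.

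Tfap2b transcripts were reduced in the mesenchyme of both tetradactyl genotypes, and Tfap2b was the only member called there. Wt mesenchyme held 11.3, 14.4 and 16.7 CPM of Tfap2b, E1C8Δ/Δ 3.40, 3.29 and 3.21 CPM and E1C5Δ/Δ 2.00, 2.25 and 4.29 CPM. Each of the 6 mutant libraries lay below each Wt library, which holds for the male and the female mutant embryos alike. The difference of both mutants from Wt was log2 −2.19 (SE 0.19, edgeR adjusted p = 6.5e-04), where 2.08% of all genes tested were called. It amounted to log2 −2.12 (SE 0.24, adjusted p = 0.0018) in E1C8Δ/Δ, with 8.74% of genes called, and −2.25 (SE 0.23, adjusted p = 0.0021) in E1C5Δ/Δ, with 1.43% of genes called. Between the mutants Tfap2b differed by log2 0.13 (95% interval −0.39 to 0.65, adjusted p = 0.78), where 9.13% of genes were called. With embryo sex as a term the difference of both mutants was log2 −2.31 (adjusted p = 0.045). The study itself named Tfap2b as a distal progenitor gene on these embryos, so its direction here is not independent evidence.

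In sums over mesenchyme, fewer distal cells and less RNA per cell cannot be told apart. Cells that met the distal gate made up 8.77%, 8.25% and 11.1% of mesenchyme cells in Wt, 8.39%, 3.75% and 4.35% in E1C8Δ/Δ, and 3.75%, 5.37% and 4.31% in E1C5Δ/Δ. The means were 9.36 ± 1.50% in Wt and 4.99 ± 1.77% in mutants, and 1 E1C8Δ/Δ library overlapped with Wt. The gate rests on UMIs of Hoxa13 and Hoxd13, which were themselves lower in mutant mesenchyme, and on depth, so these shares are not a count of distal cells and are given without a test. After thinning to 10000 UMIs per cell the gate held 337 of 10762 mesenchyme cells in Wt, 207 of 11249 in E1C8Δ/Δ and 105 of 10808 in E1C5Δ/Δ. Within the distal cells themselves Tfap2b was 83.0, 108 and 101 CPM in Wt, 21.7, 32.6 and 38.0 CPM in E1C8Δ/Δ and 25.1, 21.7 and 33.3 CPM in E1C5Δ/Δ. Again no mutant library reached the lowest Wt library. The difference was log2 −1.70 (SE 0.15, adjusted p = 5.5e-05; 1.22% of genes called) for both mutants, −1.57 (SE 0.19, adjusted p = 0.0011; 6.45% called) for E1C8Δ/Δ and −1.82 (SE 0.18, adjusted p = 2.2e-04; 0.829% called) for E1C5Δ/Δ. Between the mutants it was 0.25 (95% interval −0.16 to 0.67, adjusted p = 0.48; 4.65% called). Median depth of distal cells was 36301 to 68005 UMIs in Wt, 22584.5 to 47579 in E1C8Δ/Δ and 42072 to 58141 in E1C5Δ/Δ. E1C8Δ/Δ replicates 2 (22584.5) and 3 (30167) both lay below every Wt library. When all cells were thinned to 10000 UMIs before gating, the Tfap2b difference was log2 −1.57 (SE 0.17, adjusted p = 2.7e-06).

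A gate on Shh, chosen after the data were seen, gave a like picture for posterior cells. Distal cells were not left out of this gate, so the likeness is no independent evidence. Tfap2b was 61.7, 50.6 and 60.8 CPM in Wt, 15.7, 25.5 and 29.0 CPM in E1C8Δ/Δ and 16.2, 9.62 and 17.2 CPM in E1C5Δ/Δ. No mutant library overlapped with Wt (both mutants, log2 −1.54, SE 0.16, adjusted p = 8.3e-04; 0.291% of genes called). Where a mesenchyme cell held neither Hoxa13 nor Hoxd13, Tfap2b was near background in all genotypes, with 0.911 to 1.83 CPM in Wt, 0.421 to 1.15 CPM in E1C8Δ/Δ and 0.347 to 0.928 CPM in E1C5Δ/Δ. That difference was log2 −0.82 (SE 0.34, adjusted p = 0.22; 1.86% called), and the genotypes overlapped. The distal cells held 79.7% to 94.2% of all mesenchymal Tfap2b UMIs in Wt, 51.8% to 74.1% in E1C8Δ/Δ and 49.3% to 68.6% in E1C5Δ/Δ. The gate itself held 8.25% to 11.1%, 3.75% to 8.39% and 3.75% to 5.37% of mesenchyme cells in the same order. Cells with neither Hox gene held 2.92% to 7.36%, 7.41% to 26.5% and 10.8% to 13.1% of the Tfap2b UMIs. The rest lay in mesenchyme cells with UMIs of only 1 of the 2 Hox genes. The change of the genotype difference between distal and other mesenchyme, as an interaction, was log2 −0.85 for Tfap2b (SE 0.20, adjusted p = 0.073; 0.386% called) and did not pass the threshold. It passed in 3 of 17 alternatives. Ectoderm markers in distal cells were at 8.02 to 9.69 CPM in Wt, 7.06 to 13.9 CPM in E1C8Δ/Δ and 4.03 to 8.68 CPM in E1C5Δ/Δ. Over all mesenchyme they were 12.2 to 15.9 CPM in Wt, 14.3 to 19.5 CPM in E1C8Δ/Δ and 9.46 to 11.6 CPM in E1C5Δ/Δ, the last without overlap with Wt. The 5 markers of the apical ectodermal ridge were higher in E1C8Δ/Δ than in Wt without overlap, with 5.59 to 5.97 CPM against 3.92 to 5.42 CPM in distal cells and 14.5 to 15.6 CPM against 9.45 to 10.2 CPM in mesenchyme. Their part in the Tfap2b difference was not tested.

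Tfap2c, which is also highest in the distal domain of the mesenchyme, was not called between genotypes. In distal cells Tfap2c was 66.1, 51.8 and 49.9 CPM in Wt, 42.3, 43.5 and 50.3 CPM in E1C8Δ/Δ and 50.3, 51.4 and 83.3 CPM in E1C5Δ/Δ. Each mutant overlapped with Wt, while all E1C8Δ/Δ libraries lay below all E1C5Δ/Δ libraries, although the nearest pair is equal as rounded here. That difference between the mutants was log2 −0.44 (SE 0.17, edgeR adjusted p = 0.14), and it passed the threshold without the filter on low counts (−0.48, adjusted p = 0.019). The difference of both mutants was log2 −0.05 (95% interval −0.36 to 0.25, adjusted p = 0.91), an interval that does not include the Tfap2b difference. In whole mesenchyme Tfap2c was 15.9, 13.0 and 12.4 CPM in Wt, 13.6, 9.17 and 10.4 CPM in E1C8Δ/Δ and 11.6, 13.7 and 23.3 CPM in E1C5Δ/Δ (log2 −0.05, 95% interval −0.44 to 0.34, adjusted p = 0.92). The mutants differed from each other by log2 −0.65 (SE 0.21, adjusted p = 0.076). This value passed the threshold with DESeq2 (adjusted p = 0.019), without the filter on low counts (0.035) and without E1C5Δ/Δ replicate 1 (0.043), while without E1C5Δ/Δ replicate 3, the highest library, it was −0.35 (adjusted p = 0.21). In mesenchyme with neither Hox gene Tfap2c was 2.66 to 6.57 CPM in Wt and 5.44 to 13.0 CPM in mutants (log2 0.55, 95% interval 0.017 to 1.09, adjusted p = 0.26). The interaction of genotype with distal against other mesenchyme was log2 −0.57 for Tfap2c (SE 0.13, adjusted p = 0.057). It passed the threshold in 5 of 17 alternatives. These were DESeq2 (adjusted p = 0.034), no filter on low counts (7.3e-07) and more than 1500 genes per cell (0.032). The others left out Wt replicate 2 (0.0498) or E1C8Δ/Δ replicate 2 (0.040). Distal cells held 42.6% to 62.9% of mesenchymal Tfap2c UMIs in Wt, 24.8% to 36.1% in E1C8Δ/Δ and 21.9% to 26.7% in E1C5Δ/Δ. For Tfap2a these shares were 18.1% to 32.5%, 9.75% to 25.2% and 8.06% to 9.87% in the same order. Cells with neither Hox gene held 10.6% to 25.6%, 31.5% to 46.7% and 33.6% to 37.9% of the Tfap2c UMIs. For Tfap2a they held 50.1% to 64.5%, 58.7% to 74.1% and 62.5% to 69.7%. The rest lay in cells with only 1 of the 2 Hox genes. The distal gate itself held 8.25% to 11.1%, 3.75% to 8.39% and 3.75% to 5.37% of mesenchyme cells. How far the smaller gate sets the shares of UMIs was not tested.

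Tfap2a was likewise not called in any genotype comparison. Its mesenchyme levels were 16.6, 11.7 and 12.8 CPM in Wt, 13.0, 11.4 and 11.2 CPM in E1C8Δ/Δ and 9.89, 13.7 and 17.8 CPM in E1C5Δ/Δ. The genotypes overlapped, and the difference of both mutants was log2 −0.09 (95% interval −0.41 to 0.22, adjusted p = 0.78). In distal cells Tfap2a was 26.0, 23.1 and 26.8 CPM in Wt, 28.2, 21.3 and 22.8 CPM in E1C8Δ/Δ and 19.3, 15.5 and 22.7 CPM in E1C5Δ/Δ (log2 −0.21, 95% interval −0.47 to 0.05, adjusted p = 0.41). The E1C5Δ/Δ libraries were all below the Wt libraries, with a difference of log2 −0.35 (SE 0.14, edgeR adjusted p = 0.43) that missed the threshold. In Shh cells its levels of 13.5 to 19.2 CPM in Wt lay above the 7.73 to 10.8 CPM of E1C5Δ/Δ without overlap (log2 −0.76, SE 0.18, adjusted p = 0.11; 0.368% of genes called), which missed the threshold.

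**Figure D3:**
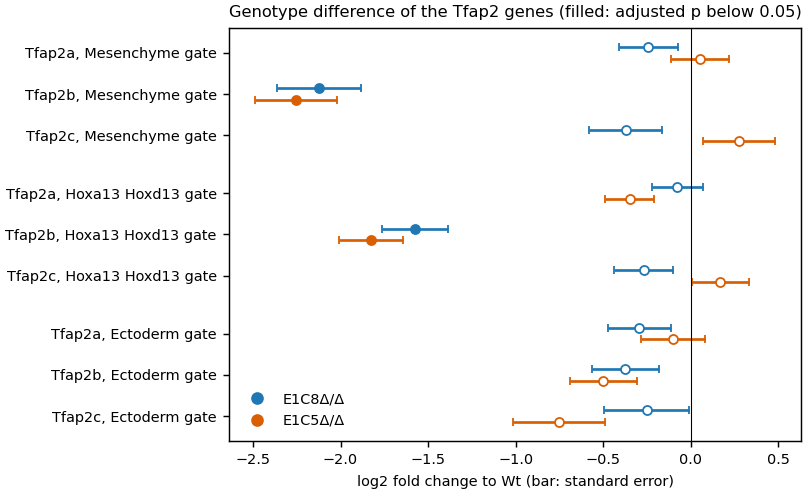
Genotype differences of each Tfap2 gene as log2 fold change (points) with SE (bars) in mesenchyme, distal mesenchyme and ectoderm, for E1C8Δ/Δ and for E1C5Δ/Δ against Wt. Filled points have an adjusted p below 0.05. Only the Tfap2b differences from Wt in mesenchyme and distal mesenchyme are filled.

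In ectoderm no member was called between genotypes. With edgeR 1 gene of 10900 (0.00917%) was called for both mutants against Wt, 535 genes had an unadjusted p below 0.05, and DESeq2 called none of the members. Tfap2b had 187 and 205 CPM in the 2 Wt libraries and 109 to 175 CPM in the 6 mutants, without overlap, for a difference of log2 −0.44 (SE 0.17, 95% interval −0.79 to −0.08, unadjusted p = 0.020, adjusted p = 0.93). The Wt library below the cell minimum lay at 151 CPM, within the mutant range. Tfap2c differed by log2 −0.50 (95% interval −0.97 to −0.03, adjusted p = 0.97). In E1C5Δ/Δ all 3 libraries (10.6 to 17.4 CPM) were below both Wt libraries (log2 −0.75, SE 0.26, adjusted p = 0.91; 0.0183% called). Tfap2a overlapped between genotypes (log2 −0.20, 95% interval −0.54 to 0.14, adjusted p = 0.99). No member was called in E1C8Δ/Δ against Wt (0.0367% of genes called) or between the mutants (0.229% called) either. The mutant difference of Tfap2b was smaller in ectoderm than in mesenchyme, by log2 1.61 (SE 0.25, adjusted p = 0.016; 0.0334% called), in a test chosen after the data were seen. It lost its call with DESeq2 (adjusted p = 0.31) and without E1C5Δ/Δ replicate 2 (0.064). Leaving out Wt replicate 1 or Wt replicate 2 left a single Wt library with enough ectoderm cells. The value was then log2 1.81 and 1.41, respectively.

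The apical ectodermal ridge, taken as ectoderm cells with a UMI of Fgf8, had less Tfap2b than the rest of the ectoderm. Only 4 libraries had 10 ridge cells or more, and 6.26% of genes were called. Ridge Tfap2b was 21.2 and 64.2 CPM in Wt replicates 1 and 2, compared with 248 and 245 CPM in their other ectoderm. In E1C8Δ/Δ replicates 2 and 3 it was 98.3 and 108 CPM, compared with 187 and 151 CPM. The ridge was thus lower in 4 of 4 libraries (log2 −1.49, SE 0.21, edgeR adjusted p = 1.3e-05), although DESeq2 did not call it (log2 −1.62, adjusted p = 0.14). Few cells carried these ridge levels. A single ridge cell held 32 of 80 Tfap2b UMIs in Wt replicate 2, 35 of 60 in E1C8Δ/Δ replicate 2 and 24 of 46 in E1C8Δ/Δ replicate 3. Ridge cells with a Tfap2b UMI numbered 11 of 31, 10 of 31 and 7 of 21 in these libraries, so no genotype order was read from the ridge. Tfap2a was also lower in the ridge in 4 of 4 libraries, with 60.8 to 82.5 CPM against 69.2 to 130 CPM (log2 −0.43, SE 0.14, adjusted p = 0.065). Tfap2c was lower in 3 of 4 libraries (log2 −0.32, SE 0.24, adjusted p = 0.60).

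**Figure D4:**
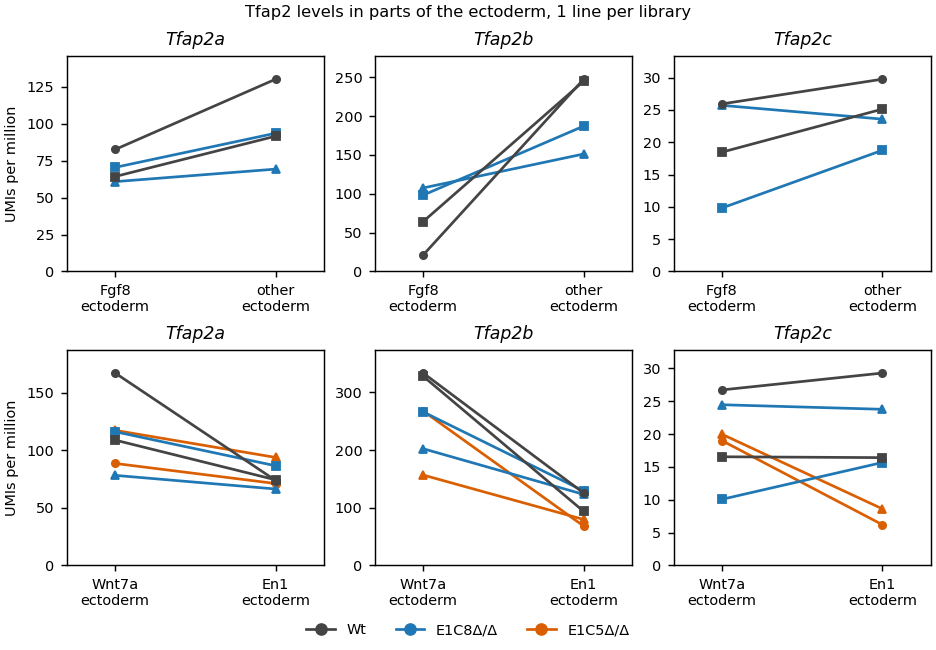
Level of each Tfap2 gene (UMIs per 1000000 UMIs, linear axes from 0) in Fgf8 cells and other ectoderm of 4 libraries and in Wnt7a (dorsal) and En1 (ventral) ectoderm of 6 libraries, with lines joining values of the same library. Tfap2b is lower in Fgf8 cells than in other ectoderm in all 4 libraries shown for that pair.

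The share of mesenchyme cells with a Tfap2b UMI was also lower in each mutant library than in each Wt library. After thinning to 10000 UMIs per cell, 5.18% to 6.36% of Wt mesenchyme cells and 1.27% to 2.60% of mutant mesenchyme cells held Tfap2b (unthinned 9.20% to 12.6% and 3.93% to 6.53%). The difference of means was −3.77 percentage points (exact permutation test, two-sided p = 0.012, the smallest that 3 against 6 libraries allow), with an adjusted p = 0.054 over 9 tests. As no lower p was possible, missing the threshold after correction is no sign that the shares were alike. Among distal cells the Tfap2b share was 56.0 ± 4.6% in Wt (n = 3) and 28.4 ± 6.2% in mutants (n = 6), a difference of −27.6 points with the same p-values. Unthinned, the distal shares were 65.1 ± 3.9% and 46.0 ± 7.0%. Thinning left out 214 Wt, 713 E1C8Δ/Δ and 319 E1C5Δ/Δ mesenchyme cells of fewer UMIs, and the distal gate, applied again after thinning, kept 12 to 154 cells per library. In ectoderm the thinned Tfap2b share was 59.2% in Wt and 58.4% in mutants (unthinned 70.2% and 68.2%). The thinned Tfap2c share in ectoderm was 22.9% in 2 Wt and 13.6% in 6 mutant libraries, which overlapped (permutation test, adjusted p = 0.75). Unthinned, the Tfap2c shares were 44.3% and 27.7%, without overlap (permutation test, adjusted p = 0.11). In erythroid cells 0% to 1.20% held a Tfap2b UMI. Tfap2c was found in 40.6 ± 5.3% of Wt and 42.4 ± 8.8% of mutant distal cells, and Tfap2a in 20.6 ± 3.9% and 23.7 ± 10.6%. Unthinned, the Tfap2a shares were 60.1 ± 5.5% and 48.6 ± 8.1%, in the opposite order, so no order was read from them.

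Tfap2b and Tfap2c were detected together in part of the distal cells. Of thinned Wt distal cells with Tfap2b 45.3% also held Tfap2c, compared with 38.8% of those without Tfap2b. The corresponding values were 50.8% and 38.4% in E1C8Δ/Δ and 60.6% and 41.7% in E1C5Δ/Δ. In Wt ectoderm the order was opposite, with 19.6% and 28.3%. These shares pool cells of 3 libraries (2 for Wt ectoderm), weigh large libraries more and are given without a test. By library the distal order was opposite in Wt replicate 3 (29.4% and 42.9%) and E1C8Δ/Δ replicate 2 (41.4% and 45.5%), and both values were 50.0% in E1C5Δ/Δ replicate 1. Over all mesenchyme, 36.7% of Wt cells with Tfap2b and 7.57% of cells without it held Tfap2c.

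Known partners of AP-2 proteins are given in part only. Cited2, Cited4, Kctd1, Kctd15 and Yeats4 were not called in mesenchyme of both mutants, where their differences ran from log2 −0.26 to 0.094. Cited2, a CBP/p300-binding coactivator, was higher in distal cells of E1C8Δ/Δ than of Wt (log2 0.48, adjusted p = 0.031; 6.45% of all genes called) and of E1C5Δ/Δ (0.60, adjusted p = 0.014; 4.65% called). Cited2 was also higher in distal than in other mesenchyme (0.82, adjusted p = 1.4e-11; 58.9% of all genes called). In ectoderm Cited4 (4.54, adjusted p = 1.2e-11) and Kctd1, an inhibitor of AP-2 activity (1.06, adjusted p = 4.5e-12), were higher than in mesenchyme, while Kctd15, a further AP-2 inhibitor, was lower (−0.59, adjusted p = 1.1e-06), where 57.7% of all genes were called. Cited2 and Yeats4 were lower in ectoderm by small amounts (log2 −0.26 and −0.16).

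Genes of the distal progenitors that the study named on these samples fell together with Tfap2b in part. In mesenchyme of both mutants 3 of 7 fell and none rose, where 2.08% of all genes were called, with a median of log2 −0.72 compared with −0.01 over all genes. These were Hoxa13 (−1.12, adjusted p = 0.040), Hoxd13 (−0.79, adjusted p = 0.014) and Jag1, a Notch ligand (−1.0, adjusted p = 0.013). The list was chosen on these embryos and is no independent evidence of direction. As a mean of both mutants, Jag1 fell in distal cells by a like amount as Tfap2b (−1.62, SE 0.15, adjusted p = 7.6e-05). Hoxa13 and Hoxd13 define these cells and are therefore not compared there, and among the other genes of the list Jag1 alone fell in distal cells of both mutants (1.22% of all genes called). Between the mutants Jag1 (1.10, SE 0.20, adjusted p = 0.010) and Hey1, a Notch target (0.82, adjusted p = 0.0090), were higher in E1C8Δ/Δ distal cells (4.65% of all genes called). Tfap2b was not called between the mutants there, so the likeness of Jag1 and Tfap2b did not extend to each mutant. Of the surface ectoderm regulators, Grhl3, Klf5 and Dlx3 were each higher in ectoderm than in mesenchyme, where 57.7% of all genes were called. Trp63 and Grhl2 are markers of the ectoderm gate, so their higher level there was set by the gating. None of these regulators was called between genotypes in ectoderm. In mesenchyme Klf5 was higher in E1C8Δ/Δ than in Wt (0.50, adjusted p = 0.049; 8.74% of all genes called) and than in E1C5Δ/Δ (0.67, adjusted p = 0.017; 9.13% called), as was Dlx3 in E1C8Δ/Δ against E1C5Δ/Δ (1.24, adjusted p = 0.040). The summed ectoderm markers of mesenchyme-gated cells were also higher in E1C8Δ/Δ (14.3 to 19.5 CPM) than in E1C5Δ/Δ (9.46 to 11.6 CPM), and their part in these differences was not tested.

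Finally, the genes most like each member in level were listed over 30 sums of ridge, other ectoderm, distal and other mesenchyme, among 9840 genes. For Tfap2b these were Jag1 (r = 0.93), Slc1a3 (0.93), Nrarp (0.89), Soga3 (0.89) and Arid3a (0.88). For Tfap2a they were Frmd4b (0.97), Slc9a3r1 (0.97), Slc2a3 (0.97), Pdlim1 (0.96) and Arhgef5 (0.96). For Tfap2c they were Socs2 (0.89), Mtss1 (0.87), Trib2 (0.84), Rprml (0.82) and Hibadh (0.82). The 30 sums share libraries and gates, so the correlations of log2(CPM + 1) describe these data only. The 3 lists had no gene in common.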

How the data were processed

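Single-cell RNA was measured in 9 forelimb bud libraries (3 Wt, 3 E1C8Δ/Δ, 3 E1C5Δ/Δ). The authors aligned reads to mm10 with Cell Ranger 6.0.1 and deposited UMI counts per gene and barcode, and the labels name Seurat 4.3.0.1 for later steps, while the study's methods name another version. No step here used Seurat. Libraries held 26620760 to 500559729 UMIs. The limit beside a count of 0 covers counting error only, whereas SEs and 95% intervals of the fits include the spread between libraries. By the study's description each library came from 1 pair of limb buds. Nothing in the labels separates biological from technical spread.

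Cells with more than 2500 genes, up to 200000 UMIs and at most 10% mitochondrial UMIs were kept, and doublets were removed by simulated-neighbour scores at 0.8% per 1000 barcodes. Mesenchyme cells had at least 4 of 5 markers (at least 5 marker UMIs per 10000) and fewer than 4 ectoderm markers. Ectoderm cells had at least 6 of 12 markers. Cells of either gate had fewer than 3 markers of any of 6 other lineages.

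UMIs were summed per library and gate (at least 10 cells) and tested with edgeR 4.0.16 (filterByExpr, TMM, quasi-likelihood, Benjamini-Hochberg over all genes, call below 0.05) in R 4.3.3. X- and Y-linked genes were left out. Gates within a library were compared with library as a block. Alternatives were DESeq2 1.42.0, RLE factors, no filter, doublets kept, more than 1500 genes, stricter gates, thinned cells, 20 cells, embryo sex, and each library left out. The scripts were tested on simulated data. The genes described were the 3 members, fixed lists, and the 5 genes most correlated with each member (mean of at least 5 CPM, pseudocount 1). Members and lists were chosen with earlier results of these data known. Results for some genes of these lists are not reported here.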

Additional observations from a re-analysis of the deposited data

Results flagged for a closer look

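The difference of both mutants from Wt in Tfap2b was not the same in the 2 tissue layers. It was log2 −2.19 in mesenchyme and −0.44 in ectoderm, and the interaction of tissue layer and genotype was 1.61 (SE 0.25, edgeR adjusted p = 0.016, 0.0334% of all genes called). The test was chosen after the data were seen and rests on 2 Wt libraries with at least 10 ectoderm cells. Over its alternatives the value ran from 1.41 to 1.86, and it lost its call with DESeq2 and without E1C5Δ/Δ replicate 2. Without Wt replicate 1 or Wt replicate 2 a single Wt library was left, so no call is read from those fits. The cause of the difference between the layers was not tested.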

How the results depend on the processing

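The Tfap2b differences of both mutants in mesenchyme (log2 −2.38 to −2.07) and in distal cells (−1.83 to −1.57) kept their direction and their call under all 19 alternatives, other than the gates and terms added later. Replicate numbers did not pair the libraries, since deviations of same-numbered libraries correlated at −0.148 to 0.098. With the replicate number as a block, Tfap2b differed by −2.22 in mesenchyme, −1.73 in distal cells and −0.34 in ectoderm, and no call changed. The ectoderm values are limited by few cells, with 8 in Wt replicate 3 and 4 libraries with enough ridge cells.

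In mesenchyme with neither Hox gene 0 members were called, and Tfap2c was 0.55 for both mutants and 0.25 for E1C8Δ/Δ. The number of members called in ridge against other ectoderm, 1 as reported, was 0 with DESeq2, 2 without the filter on low counts and 2 with doublets kept. For the genotype difference in distal against other mesenchyme, where no member was called as reported, it was 1 with DESeq2 (Tfap2c) and 2 without the filter (Tfap2b and Tfap2c). It was 1 with more than 1500 genes per cell (Tfap2c), and 0 to 2 when each library was left out in turn.

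The following differences changed sign, and none was called either way (log2). With more than 1500 genes per cell, Tfap2a was 0.0037 in ectoderm of E1C5Δ/Δ and 0.050 in distal cells of E1C8Δ/Δ, and Tfap2c was 0.0094 in the ridge. With thinned cells, Tfap2a was 0.039 in ectoderm of both mutants, 0.16 in that of E1C5Δ/Δ, 0.11 in distal cells of E1C8Δ/Δ, 0.090 in the distal interaction and 0.20 in the ectoderm interaction. Tfap2c with thinned cells was 0.080 in distal cells of both mutants and 0.024 in the ridge. In the Shh cells, not thinned, Tfap2c was 0.12 for both mutants.

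With each library left out in turn, in mesenchyme, Tfap2c ran from −0.20 to 0.055 and Tfap2a from −0.18 to 0.053 for both mutants. For E1C5Δ/Δ they ran from −0.025 to 0.45 and from −0.12 to 0.23. Tfap2b of E1C8Δ/Δ minus E1C5Δ/Δ ran from −0.058 to 0.51 in mesenchyme and from −0.071 to 0.29 in ectoderm. Tfap2a of E1C5Δ/Δ in ectoderm ran from −0.29 to 0.091. In distal cells Tfap2c ran from −0.18 to 0.056 for both mutants and from −0.073 to 0.28 for E1C5Δ/Δ, and Tfap2a from −0.16 to 0.016 for E1C8Δ/Δ. The ectoderm interaction ran from −0.53 to 0.020 for Tfap2c and from −0.13 to 0.0060 for Tfap2a.

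Shares are given as percentage points, mutants minus Wt. With each library left out they ran from −0.78 to 1.0 for Tfap2c in mesenchyme, −12.1 to 8.62 for Tfap2a and −5.41 to 3.73 for Tfap2b in ectoderm, and −0.78 to 4.50 for Tfap2c in distal cells. Without thinning, Tfap2a was 6.62 in ectoderm and −11.5 in distal cells, and Tfap2c −0.25 in distal cells. At 5000 UMIs, Tfap2a was 3.90 in ectoderm and −7.82 in distal cells, and Tfap2b 1.03 in ectoderm. With doublets kept, Tfap2a was 1.70 in ectoderm and −12.5 in distal cells, and Tfap2c −2.15 in distal cells. With more than 1500 genes, Tfap2a was 0.82 in ectoderm and −4.98 in distal cells, and Tfap2c −0.72 in distal cells. With the stricter gate, Tfap2a was 6.55 in ectoderm and −5.56 in distal cells. The cause of these changes was not tested.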

Other observations

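Within the ectoderm, dorsal and ventral cells were set side by side in the 6 libraries with at least 10 cells of both. Dorsal cells had a UMI of Wnt7a, the dorsal signal of the limb bud, and none of En1, its ventral repressor. Ventral cells had a UMI of En1 and none of Wnt7a. These places were chosen after values were seen, and the differences were not tested. Fgf8 ridge cells, which had less Tfap2b than other ectoderm, were not left out of either place. Median En1 over the libraries was 138 CPM in ridge cells and 79.0 CPM in other ectoderm. The part of ridge cells in these differences was not tested. Tfap2b was higher dorsally in 6 of 6 libraries, with 157 to 333 CPM compared with 68.1 to 129 CPM ventrally, a ratio of 1.64 to 3.93. Tfap2a was also higher dorsally in 6 of 6 libraries, with 78.3 to 167 CPM compared with 66.4 to 93.9 CPM and a ratio of 1.18 to 2.27. For Tfap2c the dorsal level was the higher one in 4 of 6 libraries, and the ratio ran from 0.642 to 3.07.

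Neural crest, a classical site of Tfap2a and Tfap2b expression, contributed 4 cells that met its marker gate. The single cells of Wt replicates 2 and 3 held 1 and 2 UMIs of Tfap2a (29.9 and 28.2 CPM) and 3 and 7 UMIs of Tfap2b (89.7 and 98.6 CPM). The 2 cells of E1C8Δ/Δ replicate 3 held no UMI of either gene among 20772 UMIs, which allows up to 144 CPM, and Tfap2c had no UMI in any of the 4 cells.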
